A study of Mus musculus with 8 samples.

Results

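The genes examined here encode hepatocyte plasma proteins: apolipoproteins, coagulation and fibrinolysis proteins, complement proteins, and carriers with protease inhibitors. They were chosen by name. Of 53 names, 52 matched a protein-coding gene of the GENCODE annotation of mm10, out of 21938 protein-coding genes in all. The name Tf was not matched, and mouse transferrin entered under its name Trf. For each gene, H3K27-me3 regions were searched within 1, 15 and 50 kb of its start sites, and the closest start site of any protein-coding gene was recorded for each region found.

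H3K27-me3 was mapped by ChIP-seq in livers of C57BL/6 males with a floxed JMJD3 gene (JMJD3-floxed). Both groups carried the floxed allele and were injected with virus at 8 weeks of age. One group received AAV-TBG-Cre, in which the hepatocyte promoter TBG drives the Cre recombinase, which downregulates JMJD3 in hepatocytes and leaves the gene intact in the other cells of the liver. The control group received AAV-GFP. All mice were fasted for 16 h at 12 weeks after injection. From 2 mice per group, 2 immunoprecipitated and 2 input libraries were made, or 8 libraries in all. The deposited data are 1 peak list per group, which pools its 2 mice, so no test between the viruses was made. The lists cannot show how far JMJD3 was lowered.

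Hepatocytes secrete most of the proteins of blood plasma, and the genes for these proteins are among the most strongly transcribed of the liver. H3K27-me3 is deposited by Polycomb complexes and is found over genes that are kept silent, often at CpG-rich start sites of genes that are used in other cell types. JMJD3, encoded by Kdm6b, removes this mark. The chromatin came from whole liver tissue, so a region present in hepatocytes and a region present in the other cells of the tissue cannot be told apart.

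No start site of the 52 plasma protein genes lay within 1 kb of a region, in either list. To show the sequence of such start sites, 5 promoters are printed, from 250 bases before to 50 bases after the start, as listed by RefSeq on GRCm38.p6. Vtn and C8g are the genes with the nearest AAV-Cre regions. Apoa1 and Fgb are members without a region within 15 kb, although Fgb had one within 50 kb in both lists. Plaur, the urokinase receptor of other cell types, is printed for contrast because its start lay inside a region of both lists. Capitals mark CG dinucleotides.
Vtn (chr11:78498870-78499169, plus strand): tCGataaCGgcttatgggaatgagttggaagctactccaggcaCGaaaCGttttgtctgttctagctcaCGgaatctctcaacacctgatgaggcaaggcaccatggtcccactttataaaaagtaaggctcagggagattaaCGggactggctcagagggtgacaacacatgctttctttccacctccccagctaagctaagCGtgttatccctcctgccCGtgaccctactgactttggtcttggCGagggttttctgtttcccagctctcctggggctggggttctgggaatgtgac
C8g (chr2:25501670-25501969, minus strand): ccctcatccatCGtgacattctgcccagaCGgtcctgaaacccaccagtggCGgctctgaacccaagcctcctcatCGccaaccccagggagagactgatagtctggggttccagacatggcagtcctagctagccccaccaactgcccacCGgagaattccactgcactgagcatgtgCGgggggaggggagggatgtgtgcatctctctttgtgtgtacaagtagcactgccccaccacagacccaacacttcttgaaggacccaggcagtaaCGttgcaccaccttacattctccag
Apoa1 (chr9:46228380-46228679, plus strand): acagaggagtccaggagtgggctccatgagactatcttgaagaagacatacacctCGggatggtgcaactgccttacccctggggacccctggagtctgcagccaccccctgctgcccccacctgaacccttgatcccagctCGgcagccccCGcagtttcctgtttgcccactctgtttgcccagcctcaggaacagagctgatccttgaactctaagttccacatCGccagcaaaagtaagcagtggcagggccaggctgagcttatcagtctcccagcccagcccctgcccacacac
Fgb (chr3:83049814-83050113, minus strand): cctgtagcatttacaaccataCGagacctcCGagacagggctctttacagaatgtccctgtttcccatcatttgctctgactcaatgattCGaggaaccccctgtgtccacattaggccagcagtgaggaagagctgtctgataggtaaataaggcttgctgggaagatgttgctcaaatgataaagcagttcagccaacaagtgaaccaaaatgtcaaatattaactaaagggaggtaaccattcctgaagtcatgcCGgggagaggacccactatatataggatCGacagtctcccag
Plaur (chr7:24462233-24462532, plus strand): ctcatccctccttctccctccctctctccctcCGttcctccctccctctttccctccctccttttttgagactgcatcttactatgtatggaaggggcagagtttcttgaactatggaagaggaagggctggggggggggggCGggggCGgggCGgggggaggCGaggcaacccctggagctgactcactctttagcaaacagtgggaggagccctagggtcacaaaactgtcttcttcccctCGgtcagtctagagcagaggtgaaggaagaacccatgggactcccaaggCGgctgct
The 5 printed promoters held 9, 7, 4, 5 and 7 CG dinucleotides. Another promoter listed for C8g (chr2:25500457-25500756), not printed, held 13. Plaur is a single example, and some other marked genes of clotting, complement and lipoprotein handling held more CG dinucleotides, up to 23 in a promoter of Vldlr. C5ar1 and C1qc held fewer, at 3 each.

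For the nearest regions upstream of Vtn, C8g and F5, 200 bases of mm10 around the point of highest signal in the AAV-Cre list are printed in the same way, because these regions define which genes were marked.
Region near Vtn (chr11:78496944-78497143, plus strand): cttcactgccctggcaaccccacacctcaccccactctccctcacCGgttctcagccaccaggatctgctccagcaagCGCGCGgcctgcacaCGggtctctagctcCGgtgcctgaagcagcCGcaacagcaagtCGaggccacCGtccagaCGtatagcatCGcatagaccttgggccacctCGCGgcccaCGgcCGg
Region near C8g (chr2:25511178-25511377, plus strand): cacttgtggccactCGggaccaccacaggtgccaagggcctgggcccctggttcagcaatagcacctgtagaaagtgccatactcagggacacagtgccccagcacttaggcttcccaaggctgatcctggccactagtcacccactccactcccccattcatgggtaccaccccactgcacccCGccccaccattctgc
Region near F5 (chr1:164137145-164137344, plus strand): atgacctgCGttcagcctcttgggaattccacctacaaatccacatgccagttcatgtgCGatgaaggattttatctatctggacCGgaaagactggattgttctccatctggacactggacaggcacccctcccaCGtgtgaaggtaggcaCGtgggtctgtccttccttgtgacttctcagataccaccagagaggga
The stretch near Vtn held 15 CG dinucleotides in 200 bases in a region that overlapped an exon of the neighbouring gene Sarm1. The stretch near C8g held 2, in a region between genes, and the stretch near F5 held 5, in a region that overlapped an exon of Selp.

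Few plasma protein genes had H3K27-me3 near their start sites, whereas many protein-coding genes did. Within 1 kb, the count was 0 of 52 in AAV-Cre, against 23.9% of all protein-coding genes, and 0 of 52 in AAV-GFP, against 16.6%. A count of 0 of 52 has a Wilson 95% interval of 0 to 6.88%. Within 15 kb, the window used by the study, 4 of 52 genes had a region in AAV-Cre, or 7.69% (interval 3.03% to 18.2%), against 41.5% of all genes. These genes were Vtn, C8g, Ambp and F5. In AAV-GFP only Vtn had a region within 15 kb, 1 of 52 or 1.92% (0.34% to 10.1%), against 27.9%. Both shares of all genes lay above the upper bounds for the plasma protein genes. The intervals cover counting error only and treat genes as independent, although several of them are neighbours.

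Between the lists, 3 of the genes (C8g, Ambp and F5) had a region within 15 kb in AAV-Cre and none in AAV-GFP, or 5.77%, whereas 14.8% of all genes were marked in AAV-Cre alone. None was marked in AAV-GFP alone, a class that held 1.22% of all genes. The other 48 genes, or 92.3%, had no region within 15 kb in either list. The count for AAV-Cre was 3, with F5 lost, when both lists were cut to the same number of regions, against 36.1% of all genes.

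Within 50 kb, 22 of 52 genes had a region in AAV-Cre, or 42.3% (29.9% to 55.8%), against 61.7% of all genes. In AAV-GFP there were 9, or 17.3% (9.38% to 29.7%), against 46.6%. All 9 were among the 22, and the other 13, or 25.0%, had a region in AAV-Cre alone, against 17.2% of all genes. None had a region in AAV-GFP alone, against 2.09%. The AAV-Cre list was longer, with 59267 regions against 34586, and its regions were wider, with a median of 753 bp against 231 bp, so a larger count in AAV-Cre is also the case for all genes. The part of these list sizes in the difference was not tested.

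The median distance from the start site to the nearest region was also larger. In AAV-Cre the median distance was 56.2 kb for the plasma protein genes, with quartiles of 30.8 and 94.2 kb, and 26.7 kb for all protein-coding genes, with quartiles of 1.57 and 99.8 kb. In AAV-GFP the medians were 87.7 kb (66.8 to 192 kb) and 58.3 kb (10.9 to 174 kb). The upper quartiles lay closer together than the lower ones, and in AAV-Cre the upper quartile of the plasma protein genes was the smaller one. The nearest AAV-Cre region lay upstream of 30 genes and downstream of 22.

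**Figure D1:**
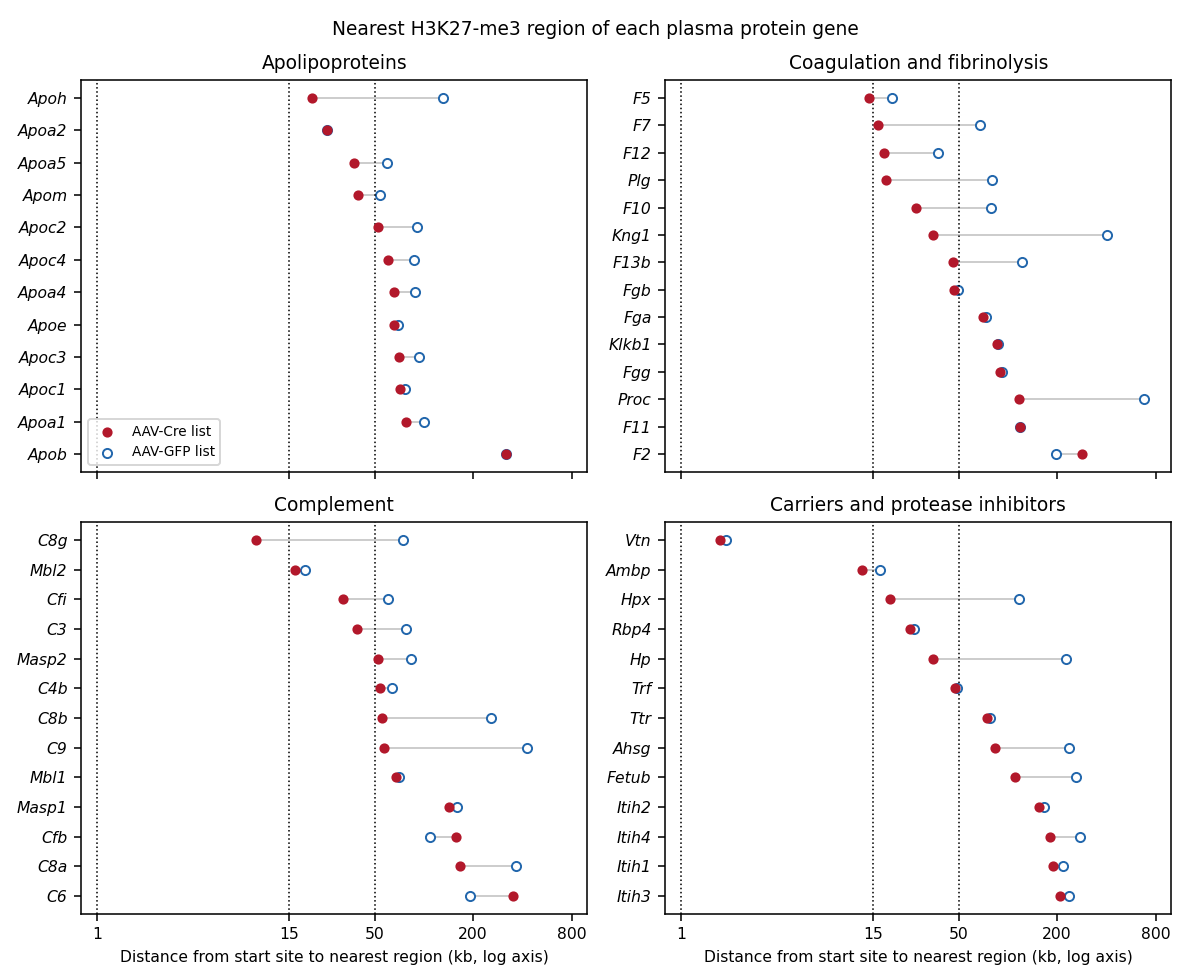
Distance in kb (log axis) from the start site of each of the 52 genes to its nearest region in the AAV-Cre list (filled red) and the AAV-GFP list (open blue), by role, with dotted lines at 1, 15 and 50 kb. No point lies left of 1 kb, and in 49 of 52 genes the AAV-Cre point lies left of the AAV-GFP point.

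The share of genes with a region rose steeply between 15 and 100 kb. In AAV-Cre, 17.3% had a region within 20 kb, 67.3% within 75 kb and 75.0% within 100 kb, compared with 75.0% of all protein-coding genes within 100 kb. Within 200 kb the AAV-Cre share was 92.3%, above the 85.6% of all genes. The AAV-GFP share was 76.9%, against 78.2%. Of the bases within 15 kb of the start sites, 0.644% lay inside an AAV-Cre region and 0.0522% inside an AAV-GFP region, against 6.67% and 1.92% for all genes. Within 50 kb the shares of bases were 2.23% and 0.149%, against 5.46% and 1.34%. The median gene was shorter in the plasma protein list, at 11.3 kb against 17.4 kb.

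**Figure D2:**
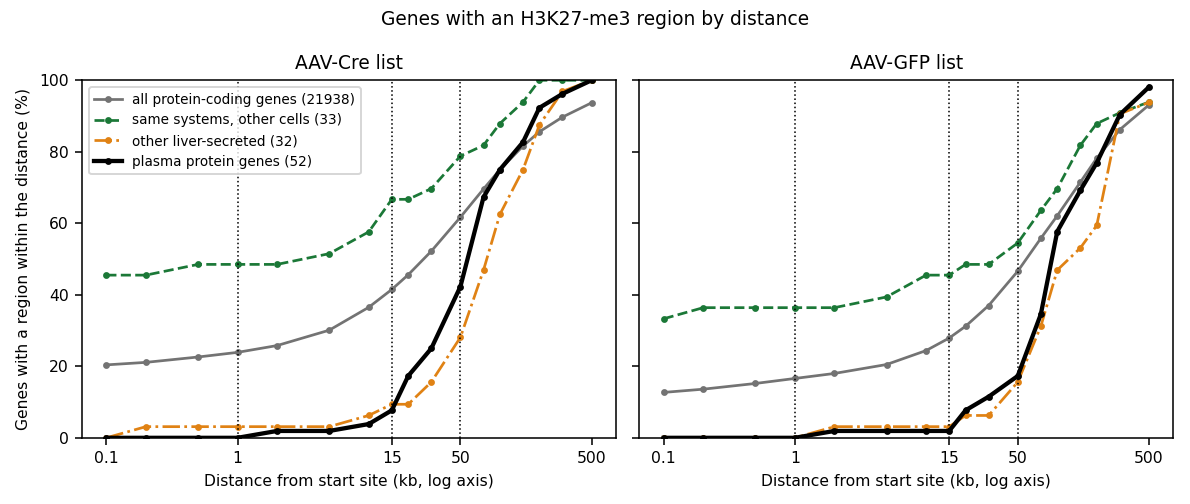
Percent of genes with a region at or within a distance in kb (log axis) of a start site, in the AAV-Cre list (left) and the AAV-GFP list (right), for the 52 plasma protein genes, 2 other gene lists and all protein-coding genes. The black line of the plasma protein genes stays at 0% up to 1 kb and reaches 42.3% (AAV-Cre) and 17.3% (AAV-GFP) at 50 kb.

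Bins of 2 kb were placed around the most upstream start site of the basic transcripts, which leaves out the far upstream start of Apoh described below. All protein-coding genes had a peak of regions at the start, with 22.6% of genes in the bin just downstream in AAV-Cre and 15.7% in AAV-GFP. No plasma protein gene had a region in any bin from the start site to 16 kb downstream, in either list. Upstream, a single gene, Vtn, accounted for the bin next to the start.

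**Figure D3:**
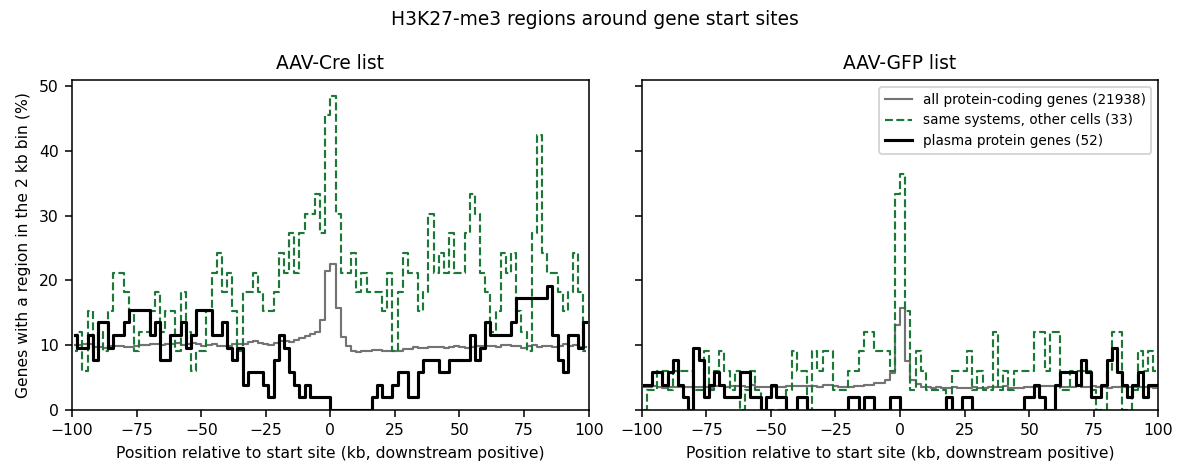
Percent of genes with a region in each 2 kb bin from 100 kb upstream to 100 kb downstream of the most upstream start site of the basic transcripts. The AAV-Cre list is on the left and the AAV-GFP list on the right. All genes (grey) and genes of the same systems used by other cells (green) peak at the start, and the plasma protein genes (black) are at 0% from the start to 16 kb downstream in both.

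Over the gene bodies, from end to end of the gene record, only Apoh held an AAV-Cre region, 1 of 52 or 1.92% against 28.8% of all genes. In AAV-GFP 0 of 52 held one, against 20.7%. The record of Apoh, a phospholipid-binding plasma glycoprotein, spans 71.0 kb (chr11:108343354-108414396, plus strand), because some of its transcripts start far upstream. Its 4 regions lay in that upstream intron, at 20725 to 48501 bp from the start site used here, with folds of 2.69 to 3.12 and widths of 644 to 929 bp. When the far upstream start was used, Apoh joined the genes with an AAV-Cre region within 15 kb and the count rose to 5, against 41.0% of all genes measured from the end of the gene record.

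Vitronectin, encoded by Vtn, is an adhesive plasma glycoprotein that also regulates complement and clotting. It was the gene nearest to H3K27-me3 and the only one marked within 15 kb in both lists. Vtn lies at chr11:78499091-78502324 on the plus strand. The AAV-Cre list had 4 regions within 15 kb, all upstream, at 1726, 3629, 7812 and 10899 bp. The nearest, chr11:78495648-78497394, was 1747 bp wide with a fold enrichment over input of 3.54 and a q-value of 2.7e-10. In AAV-GFP there were 3, at 1885, 11013 and 11896 bp, and the nearest of these, chr11:78496929-78497235, was 307 bp wide with a fold of 3.15 and a q-value of 0.00023. Both nearest regions overlapped Sarm1, the gene of a neuronal NAD-cleaving protein, whose start site was 64 bp and 223 bp away. The narrower AAV-GFP region lay inside the AAV-Cre region. No region covered Vtn itself, and the closest region on its downstream side was 202 kb away in AAV-Cre.

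C8g encodes the gamma chain of the complement component C8, a part of the membrane attack complex. The gene lies at chr2:25498651-25501719 on the minus strand. Its AAV-Cre region, chr2:25511152-25511565, was 414 bp wide, lay 9433 bp upstream between genes, with a fold of 3.04 and a q-value of 0.00095. C8g itself held the closest start site, which was the case for no other region within 15 kb except that of F5. No AAV-GFP region overlapped it, and the nearest AAV-GFP region was 74857 bp from the start of C8g, 1864 bp from that of Fut7. No second AAV-Cre region lay within 50 kb of C8g.

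Ambp encodes the common precursor of a small plasma carrier protein and of bikunin, a trypsin inhibitor. It lies at chr4:63143275-63154799 on the minus strand. Its nearest AAV-Cre region, chr4:63166943-63167383, lay 12770 bp upstream, overlapped an exon of Kif12, a kinesin gene, and was weak, with a fold of 2.51 and a q-value of 0.023. Another region, which was stronger, chr4:63168445-63173043, 14272 bp upstream, covered the start of Kif12 over 4599 bp with a fold of 6.26 and a q-value of 6.8e-23. In AAV-GFP the start of Kif12 was also next to a region, 1109 bp wide with a fold of 4.28 and a q-value of 4e-08, but at 16558 bp this fell just outside 15 kb of Ambp. Ambp was thus marked in AAV-Cre alone at 15 kb by a domain that was present in both lists at Kif12.

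F5 encodes coagulation factor V, the cofactor of factor Xa. It lies at chr1:164151838-164220277 on the plus strand. Its AAV-Cre region, chr1:164136691-164137757, was 1067 bp wide, lay 14081 bp upstream and overlapped an exon of Selp, the gene of P-selectin in platelets and endothelial cells, with a fold of 2.69 and a q-value of 0.0086. Although it overlapped Selp, the closest start site was that of F5. In AAV-GFP, the nearest region lay at 19667 bp, was 168 bp wide with a q-value of 0.034, and was also in the direction of Selp. C8g at 9433 bp is the only one of the 4 genes whose region lay neither in nor at another gene.

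At the edge of the 1 kb window there was no gene inside, and the genes just outside were Vtn and C8g in AAV-Cre and Vtn and Ambp in AAV-GFP, at the distances given above. At 15 kb, Ambp at 12770 bp and F5 at 14081 bp were the genes just inside in AAV-Cre. The genes just outside were F7 at 16049 bp and Mbl2 at 16154 bp. In AAV-GFP, Vtn was the only gene inside 15 kb, and Ambp at 16558 bp and Mbl2 at 18640 bp were just outside. At 50 kb, Fgb at 46964 bp and Trf at 47443 bp were just inside, and Masp2 at 52417 bp and Apoc2 at 52452 bp just outside. In AAV-GFP, Trf at 48982 bp and Fgb at 49708 bp were just inside 50 kb, with Apom at 53785 bp and Apoa5 at 59569 bp just outside.

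**Figure D4:**
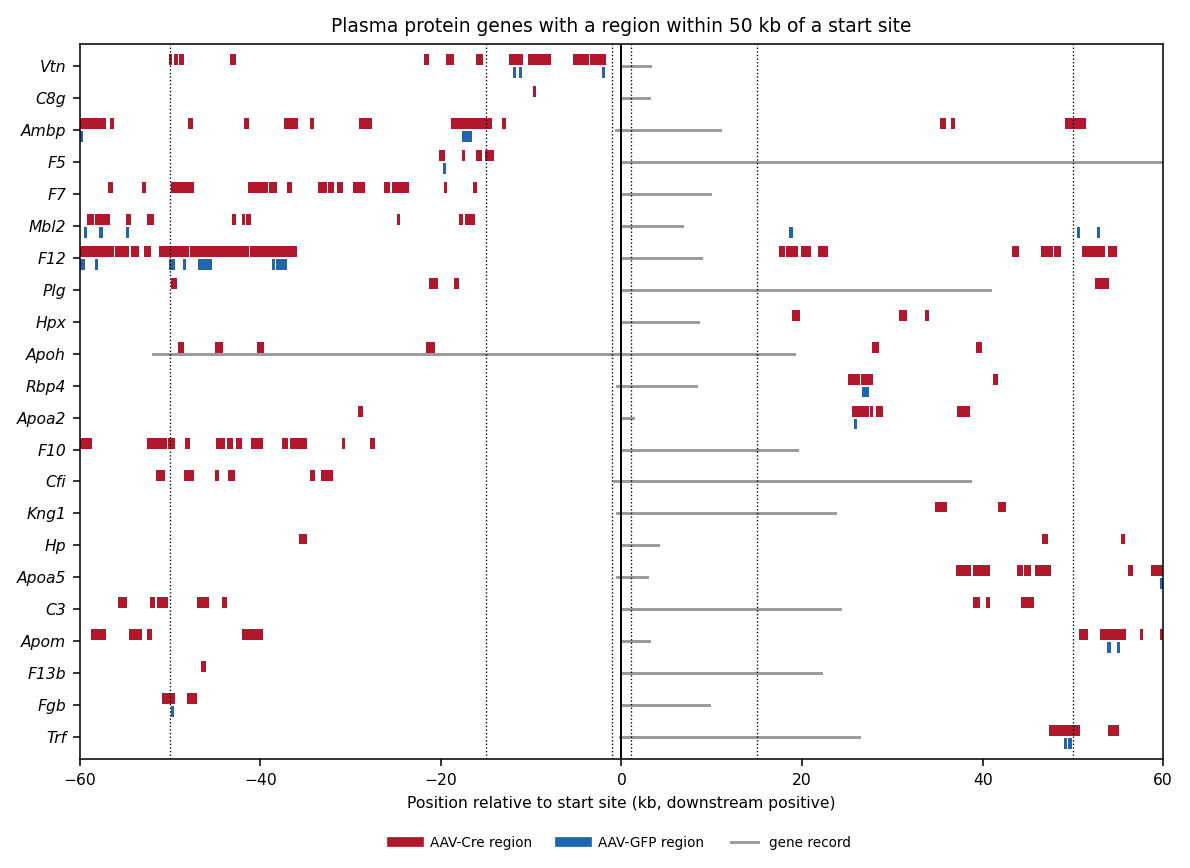
Regions of the AAV-Cre list (red) and the AAV-GFP list (blue) around the 22 genes with a region within 50 kb, by position in kb relative to the start site, with the gene record in grey and dotted lines at 1, 15 and 50 kb. Very narrow regions are widened to remain visible. The stretch around the start sites is free of regions, and Vtn, with 11 AAV-Cre regions within 50 kb, has the nearest ones.

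Among the 12 apolipoprotein genes, which encode the protein parts of plasma lipoproteins, none had a region within 15 kb. The shares of all genes were 41.5% in AAV-Cre and 27.9% in AAV-GFP. Within 50 kb, 4 had an AAV-Cre region, or 33.3% (13.8% to 60.9%), against 61.7% of all genes. An AAV-GFP region was found for 1, or 8.33% (1.49% to 35.4%), against 46.6%. The median distances were 62.8 and 87.7 kb. For Apoa2, an apolipoprotein of high-density lipoproteins, the nearest AAV-Cre region lay 25516 bp downstream over the start of Adamts4, with a fold of 4.86 and a q-value of 2.6e-11. An AAV-GFP region lay there too, at 25680 bp. For Apoa5, which raises the activity of lipoprotein lipase, the distances were 37107 bp in AAV-Cre and 59569 bp in AAV-GFP. Apom, a carrier of lipid mediators, had its AAV-Cre region at 39709 bp over the start of Aif1, a macrophage gene. The fourth gene was Apoh, described above.

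The apolipoprotein gene clusters were free of regions. Apoa1, the main protein of high-density lipoproteins, lies with Apoc3, Apoa4 and Apoa5 in a cluster of 43.3 kb on chromosome 9. In AAV-Cre the nearest region was 473 kb away on the left and 34.3 kb on the right, so the region-free interval was 550 kb, and in AAV-GFP it was 574 kb. The cluster of Apoe, a ligand of lipoprotein receptors, with Apoc1, Apoc4 and Apoc2 on chromosome 7 spans 27.6 kb, and its free interval was 144 kb in AAV-Cre and 192 kb in AAV-GFP. Apob, the structural protein of very low-density lipoproteins, was among the genes farthest from a region, at 317107 bp in AAV-Cre and 319136 bp in AAV-GFP. Its nearest AAV-Cre region covered the start of Gdf7, a growth factor gene, over 9994 bp with a fold of 14.4. The free interval around Apob was the widest of all, at 2490 kb in AAV-Cre and 2580 kb in AAV-GFP.

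Of the 14 coagulation and fibrinolysis genes, 1 had an AAV-Cre region within 15 kb (F5), or 7.14%, against 41.5% of all genes. For AAV-GFP it was 0, against 27.9%. Within 50 kb the AAV-Cre count was 8, or 57.1% (32.6% to 78.6%), which is close to the 61.7% of all genes. The AAV-GFP count was 3, or 21.4% (7.57% to 47.6%), against 46.6%. The median distances were 46.5 and 83.3 kb. F7, the protease that starts clotting with tissue factor, and its neighbour F10, the precursor of factor Xa, shared a group of AAV-Cre regions upstream of F7. F7 had 12 regions within 50 kb and F10 10, and the nearest, 491 bp wide and overlapping an exon of Mcf2l, had a fold of 2.34 and a q-value of 0.057. In AAV-GFP the nearest region was 67867 bp from F7. F12, which starts the contact pathway, had 10 AAV-Cre and 7 AAV-GFP regions within 50 kb. The strongest region within 50 kb of any of the 52 genes in AAV-Cre, with a fold of 7.93 and a q-value of 1.9e-46, lay there at 35846 bp, over the start of Prr7. The AAV-GFP list had its strongest one within 50 kb there too, at 37128 bp, with a fold of 5.49 and a q-value of 6e-21.

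For Plg, the precursor of the clot-dissolving protease plasmin, the nearest AAV-Cre region lay 18036 bp upstream between genes, and Plg held the closest start site. Kng1, the precursor of bradykinin, had AAV-Cre and AAV-GFP regions at 34676 and 402087 bp. F13b, the carrier subunit of the factor that crosslinks fibrin, had them at 45984 and 121776 bp, the former 319 bp from the start of Aspm. The 3 fibrinogen genes Fgg, Fga and Fgb lie within 42.1 kb on chromosome 3 in a free interval of 191 kb in AAV-Cre and 195 kb in AAV-GFP. The nearest region of each list lay on the side of Dchs2, and only Fgb came within 50 kb, at 46964 bp in AAV-Cre and 49708 bp in AAV-GFP. F11 and Klkb1, proteases of the contact pathway, lie in a free interval of 269 kb in AAV-Cre and 272 kb in AAV-GFP. F2, which encodes prothrombin, was 284212 bp from an AAV-Cre region, a strong one at Chrm4 with a fold of 17.4, and 196834 bp from an AAV-GFP region. Proc, the precursor of the anticoagulant protease protein C, was at 116167 bp and 676621 bp, the latter the largest distance in AAV-GFP.

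Of the 13 complement genes, 1 had an AAV-Cre region within 15 kb (C8g), or 7.69%, against 41.5% of all genes. For AAV-GFP it was 0, against 27.9%. Within 50 kb the AAV-Cre count was 4, or 30.8% (12.7% to 57.6%), against 61.7% of all genes. The AAV-GFP count was 1, or 7.69% (1.37% to 33.3%), against 46.6%. The median distances were 55.7 and 83.7 kb. Mbl2, a lectin that binds sugars of microbes, was the only gene with its own start site closest to an AAV-GFP region, 18640 bp downstream with a q-value of 0.067. Its AAV-Cre region lay on the other side, 16154 bp upstream, with a q-value of 0.00056. Cfi, the protease that cleaves activated complement proteins, was 31976 bp from an AAV-Cre region over the start of Lrit3. C3, the central component of all complement pathways, was 38939 bp from a region with a fold of 2.82 and a q-value of 0.003, nearest to Tnfsf14. In AAV-GFP the distances of Cfi and C3 were 60289 and 78035 bp.

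The genes of the membrane attack complex apart from C8g were farther away. C9 was 56616 bp from an AAV-Cre region and 426582 bp from an AAV-GFP region. C8b and C8a, neighbours on chromosome 4, lay in a free interval of 668 kb in AAV-Cre and 898 kb in AAV-GFP. C6 had the largest distance of all genes in AAV-Cre, at 349460 bp, with the nearest region over the start of Plcxd3. Of the remaining genes, C4b, Masp2 and Mbl1 were 52417 to 67015 bp from an AAV-Cre region, Masp1, a protease that acts with the mannose-binding lectins, 141442 bp, and Cfb, a protease of the alternative pathway, 157382 bp.

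Of the 13 carriers and protease inhibitors, 2 had an AAV-Cre region within 15 kb (Vtn and Ambp), or 15.4% (4.33% to 42.2%), against 41.5% of all genes. For AAV-GFP it was 1 (Vtn), or 7.69%, against 27.9%. Within 50 kb the AAV-Cre count was 6, or 46.2% (23.2% to 70.9%), against 61.7% of all genes. The AAV-GFP count was 4, or 30.8% (12.7% to 57.6%), against 46.6%. The median distances were 74.3 and 165 kb. Hpx, the haem-binding protein hemopexin, was 18935 bp from an AAV-Cre region that lay 76 bp from the start of Apbb1, and 117731 bp from an AAV-GFP region. Rbp4, the plasma carrier of retinol, was 25138 bp from a region near Ffar4, a fatty acid receptor gene whose start was covered in AAV-Cre by a second region with a fold of 6.34 and a q-value of 1.8e-18. Hp, haptoglobin, was 34806 bp from a region over the start of Pkd1l3, and 225999 bp from an AAV-GFP region. Trf, the iron carrier transferrin, was 47443 bp from an AAV-Cre region and 48982 bp from an AAV-GFP region in Rab6b. The AAV-Cre region was 3340 bp wide with a fold of 6.17, and the AAV-GFP region was 173 bp wide with a q-value of 0.5.

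Ttr, the thyroxine carrier transthyretin, was 74251 bp from an AAV-Cre region and 78083 bp from an AAV-GFP region. The secretory inhibitors of the fetuin group, Ahsg and Fetub, lie together in a free interval of 285 kb in AAV-Cre and 1020 kb in AAV-GFP. The inter-alpha-trypsin inhibitor genes Itih4, Itih3 and Itih1 lie in one of 425 kb in AAV-Cre and 694 kb in AAV-GFP. Itih2, on another chromosome, was 155444 bp from an AAV-Cre region.

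Neighbouring genes share these intervals. When genes up to 100 kb apart were joined, the 52 genes formed 38 loci, of which 8 held 2 or more genes and 22 genes in all. None of these 8 loci held a region between its outer gene ends in either list. Counted by locus, 4 of 38 had an AAV-Cre region within 15 kb and 21 of 38 within 50 kb, against 1 and 9 in AAV-GFP. By gene the AAV-Cre count within 50 kb was 22 of 52, so the share by locus lay nearer to the 61.7% of all genes. All protein-coding genes were not joined into loci, so no share counted in the same way stands beside these. The median region-free interval around a plasma protein gene was 253 kb in AAV-Cre and 454 kb in AAV-GFP, compared with 163 and 330 kb for all protein-coding genes.

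The regions found within 50 kb mostly belonged to other genes by position. The AAV-Cre list had 98 distinct regions there, and in 15 of them the closest protein-coding start site was that of a plasma protein gene. In 83 it was that of another gene, and 14 covered or came within 1 kb of such a start. The 98 regions had 38 different genes as their closest. In AAV-GFP a plasma protein gene was closest to 1 of 18 regions (Mbl2), and 6 of the 18 covered or came within 1 kb of another start. When only regions closest to the gene itself were counted, 2 genes had an AAV-Cre region within 15 kb (C8g and F5) and 0 an AAV-GFP region, against 35.1% and 23.2% of all genes counted in the same way.

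Of the 98 AAV-Cre regions, 42 overlapped an exon, 25 lay in an intron only and 31 between genes. Their median width of 792.5 bp and median fold of 2.92 were close to those of all AAV-Cre regions, 753 bp and 2.9. A region of the other list overlapped 11 of the 98, or 11.2%, compared with 24.2% of all AAV-Cre regions. Of the 18 AAV-GFP regions, 17 or 94.4% overlapped an AAV-Cre region, compared with 86.4% of all AAV-GFP regions. A q-value of 0.05 or lower was reached by 92.9% of the 98 regions and 61.1% of the 18, compared with 88.6% and 46.8% of all regions of each list.

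Further lists of related genes were described in the same way. Of 32 other plasma proteins secreted by the liver, such as Alb and F9, 1 had an AAV-Cre region within 1 kb, 3 within 15 kb and 9 within 50 kb. These are 3.12%, 9.38% and 28.1%, against 23.9%, 41.5% and 61.7% of all genes. The corresponding AAV-GFP counts were 0, 1 and 5, or 0%, 3.12% and 15.6%, against 16.6%, 27.9% and 46.6%. The gene within 1 kb was A1bg, a plasma glycoprotein, at 173 bp from a region of 9454 bp with a fold of 5.26 and a q-value of 8.2e-13. Its AAV-GFP region lay at 1204 bp. The median distances of this list were 78.2 kb in AAV-Cre and 107 kb in AAV-GFP, larger than those of the 52 genes.

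The other list held 33 genes of clotting, complement and lipoprotein handling whose products are mainly receptors or are made by other cells. In AAV-Cre 16 of 33 had a region within 1 kb, or 48.5% (32.5% to 64.8%), and 22 or 66.7% within 15 kb. In AAV-GFP the counts were 12, or 36.4% (22.2% to 53.4%), and 15, or 45.5%. The plasma protein genes were at 0 of 52 within 1 kb in both lists (0 to 6.88%). The gene lists were chosen with earlier results of these data known, so this contrast is a description and no test between them was made. Lpl, the lipoprotein lipase of fat and muscle, had its start inside an AAV-Cre region of 6548 bp with a fold of 11.4 and a q-value of 5.9e-49, and inside an AAV-GFP region of 700 bp with a fold of 5.69. The AAV-Cre region over the start of Lrp8, a receptor for Apoe, had a fold of 9.83. Vldlr, a lipoprotein receptor, Procr, the receptor of protein C on endothelium, Plaur and Thbd, the thrombin receptor thrombomodulin, followed with folds of 6.51, 8.65, 7.69 and 7.15. Next were Plau and Plat, both activators of plasminogen, F2rl1, a protease-activated receptor, and Cd55, a membrane inhibitor of complement, with folds of 6.61, 5.23, 7.04 and 6.74. All 10 starts lay inside an AAV-Cre region, and their AAV-GFP regions covered or came within 143 bp of the start.

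Defining genes of the liver cell types were too few to compare and are given as counts. Of 6 hepatocyte genes, among them the members Ttr and Apoa1, 1 had a region within 15 kb in both lists (Cyp2e1). Such a region was found for 3 of 4 endothelial genes in AAV-Cre and 2 in AAV-GFP, for 2 and 0 of 3 Kupffer cell genes, and for all 3 stellate cell and all 3 cholangiocyte genes in both lists.

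Promoter sequences were listed by RefSeq for 40 of the 52 genes, with 47 promoters, and for 16522 protein-coding genes with 20150 promoters. The genes without an entry were Ttr, Proc, Masp1, Hp, Apoc1, Trf, Kng1, Plg, C4b, Apoc3, Cfi and Cfb. The 47 promoters held a median of 5 CG dinucleotides in 300 bases, with a range of 1 to 40, compared with 14 for all promoters. The 40 belonged to a promoter of Rbp4, and the second promoter of this gene held 5. For the genes of the same systems used by other cells, 24 of 33 had an entry, and the median of their 33 promoters was also 5. This median does not cover Lpl, Thbd, Plat, Plau, F2rl1, C1qa and Cd93, which had an AAV-Cre region within 1 kb but no entry. Among the genes of that list with a region within 1 kb and an entry, the highest counts were 23 for Vldlr, 21 for Lrp8, 14 for Cr2, 13 for Procr, 12 for Cd55 and 10 for Stra6. The lowest were 3 for C5ar1 and 3 for C1qc. The other liver-secreted list had a median of 3.

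Genes with a promoter entry were classed by their promoter with the most CG dinucleotides. Among all protein-coding genes, the share with an AAV-Cre region within 1 kb was 8.06% where this promoter held 0 to 2 CG dinucleotides, 18.8% with 3 to 4, 33.6% with 5 to 9, 31.0% with 10 to 19 and 24.1% with 20 or more. The plasma protein genes numbered 5, 13, 18, 3 and 1 in these classes and had no region in any of them. The class of 5 to 9, with 18 of the 40, had the highest share in the genome, and the 2 lowest classes, with 5 and 13, had the lowest shares. Within 15 kb, 51.8% of all genes of the class of 5 to 9 had an AAV-Cre region, and 1 of the 18 plasma protein genes did. With 3 to 4 it was 37.1% and 2 of 13, and with 10 to 19 it was 49.9% and 1 of 3. With 0 to 2 it was 19.8% and 0 of 5, and with 20 or more 43.4% and 0 of 1.

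**Figure D5:**
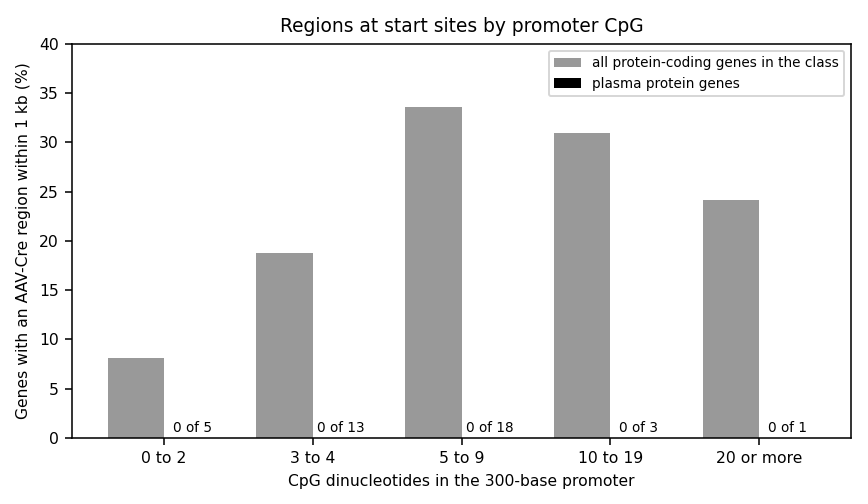
Percent of genes with an AAV-Cre region within 1 kb of a start site (bars, axis from 0) by the number of CG dinucleotides in the 300-base promoter, for all protein-coding genes (grey) and the plasma protein genes (black). A gene with several promoters is classed by the one with the most CG dinucleotides. The grey bars run from 8.06% to 33.6%, and the plasma protein genes are at 0% in all 5 classes.

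Short letter patterns, most of them known from liver promoters, were counted on both strands of the 300 bases. A match is a description of the letters and not a binding site. The 47 promoters belong to 40 genes and are not independent. The overlapping promoters of Apoa5 share TATAAA and TGTTTGC, so the same letters were counted more than once. TATAAA, the TATA box, was in 12 of 47 promoters or 25.5%, compared with 12.1% of all promoters. GTTAAT, the core of the HNF1 half-site, was in 10 or 21.3%, compared with 6.15%. The forkhead letters TGTTTAC and TGTTTGC were in 7 and 9 promoters, or 14.9% and 19.1%, compared with 2.96% and 4.66%. In the 29 promoters of the other liver-secreted list, the shares of these patterns, in the order given, were 17.2%, 37.9%, 0% and 13.8%. In the 33 promoters of the same systems used by other cells they were 12.1%, 15.2%, 0% and 6.06%. The HNF1 half-site core was thus above its share of all promoters in both lists, and the first forkhead pattern was found in neither. No test between the lists was made. The letters TTGCNNCAA, which are not a palindrome, were in 2, or 4.26%, compared with 1.83%. The C/EBP-type palindrome TTGCGCAA, a separate pattern that TTGCNNCAA does not include, was in 0, compared with 0.233%. CAAAGTCCA, an HNF4-type pattern, was also in 0, compared with 0.471%. The printed promoter of Apoa1 holds TGTTTGC, that of Fgb GTTAAT, that of Vtn TATAAA and GTTAAT, and that of Plaur TGTTTGC, while that of C8g holds none of the patterns.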

How the data were processed

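H3K27-me3 and input libraries of fasted livers were grouped by virus from the labels. The authors mapped reads to mm10 with BWA 0.7.13, filtered them with SAMtools 1.2 and Picard 1.126 (versions per the submitters' processing notes), and called peaks with MACS in the AQUAS histone pipeline against pooled input. Peaks that overlapped between replicates were kept, so each of the 2 deposited lists pools 2 libraries. The deposited lists give a fold enrichment over input (a ratio), a −log10 p-value and a −log10 q-value, which were used within a list only. A display score in the deposited lists repeats the p-value on another scale and was left out. Calling broad domains as narrow peaks splits a domain into several regions. The files hold no read counts, and the depth is unknown. There were 0 columns of per-sample values.

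Genes and start sites of basic transcripts came from GENCODE M21, and a distance runs from the nearest start site to the nearest region edge. Regions were called overlapping from 1 bp. Shares have Wilson 95% intervals (SciPy 1.17.1), which cover counting error only. Promoters came from RefSeq (GRCm38.p6), and 20150 of 20150 equalled the genome. Scripts ran in Python 3.11.15 with numpy 2.4.6, pandas 2.3.3, pysam 0.24.0 and matplotlib 3.10.9. Distances of 1293 genes and closest start sites of 1039 regions, tested on simulated data, equalled a direct search in 100%. The genes and lists were chosen with earlier results of these data known. The text names every member with a region within 15 or 50 kb, those next to each window edge, the 3 farthest from an AAV-Cre region and, of the related lists, up to 10 genes with a region within 1 kb by −log10 p. Some other members are named by role, as chosen after their values were seen. Alternatives were a highest q-value of 0.05 or 0.01, an equal number of regions in both lists, a minimum width of 300 bp, other start sites, and counting only regions closest to the gene.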

Additional observations from a re-analysis of the deposited data

How the results depend on the processing

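No paired analysis was possible because each list joins its replicates and gives no separate value for them, and for the same reason no replicate could be left out. Of 109 values recomputed under 7 settings of the regions and start sites and another promoter window, 102 stayed within 1.5 times their value. The count of 0 genes within 1 kb held with other start sites, in both lists. The remaining settings only drop regions and cannot raise a count of 0, so they could not have changed it. When only regions closest to the gene itself were counted, the genes with a region within 15 kb fell to 2 in AAV-Cre and 0 in AAV-GFP (35.1% and 23.2% of all genes), and those within 50 kb to 7 and 1 (40.8% and 27.2% of all genes), since this setting drops the regions of neighbouring genes. The AAV-GFP count within 50 kb fell from 9 to 4 with a q-value of 0.01 or lower and to 4 with regions of 300 bp or more. The share of all genes fell from 46.6% to 32.6% and 33.6%. With the q-value of 0.01 the AAV-Cre count stayed at 22, against 58.4% of all genes. The width setting could not change the AAV-Cre count, because the narrowest AAV-Cre region was 300 bp wide. The narrowest AAV-GFP region was 120 bp wide. With all annotated transcripts, 2 instead of 1 of the other liver-secreted genes had an AAV-GFP region within 15 kb. With the 34586 top regions of each list, F5 was lost and the AAV-Cre count within 15 kb was 3, against 36.1% of all genes. The end of the gene record or all transcripts as starts added Apoh, for a count of 5, against 41.0% and 44.4% of all genes. The median CpG content of the promoters was 1.67 per 100 bases and 1.15 within 1000 bp on each side of the start. Absence of a region means that none was called at the unknown depth of these libraries, not that the mark is absent.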

Other observations

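For 3 of the 52 genes the AAV-GFP region was nearer than the AAV-Cre region, or 5.77%, compared with 12.2% of all protein-coding genes. They were F2, at 196834 bp in AAV-GFP and 284212 bp in AAV-Cre, Cfb, at 109470 and 157382 bp, and C6, at 190564 and 349460 bp. All 3 AAV-GFP regions were narrow, at 165, 180 and 136 bp, had q-values of 0.18, 0.17 and 1.0, and overlapped no AAV-Cre region.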
